A study of Mus musculus with 6 samples.

Results

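The spindle checkpoint and anaphase regulators described here are 10 mouse genes: Bub1, Bub1b, Bub3, Ttk, Mad1l1, Mad2l1, Cdc20, Fzr1, Pttg1 and Espl1. They were chosen by name, as the rows whose gene symbol is one of these 10, out of 55549 rows in the deposited tables. All 10 were found once in each table, and all 10 passed the filter on low counts.

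The spindle checkpoint holds a dividing cell in metaphase until every chromosome is attached to the spindle. At unattached kinetochores the kinase Ttk (MPS1) recruits Bub1 and Bub3, and Mad1l1 brings in Mad2l1. Mad2l1, Bub1b (BUBR1), Bub3 and Cdc20 then join in the mitotic checkpoint complex, which keeps Cdc20 from activating the anaphase-promoting complex (APC/C), a ubiquitin ligase. Once the block is lifted, the APC/C with Cdc20 marks securin, the product of Pttg1, and cyclin B for destruction, and separase, the product of Espl1, cuts the cohesin rings that join sister chromatids. Fzr1 (CDH1) is the other activator of the APC/C and works from late mitosis through G1. In mouse eggs and early embryos these proteins are first made from RNA stored in the oocyte, much of which is cleared during the 2-cell stage while the embryonic genome becomes active.

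RNA was sequenced from early 2-cell mouse embryos in 2 groups, with 3 libraries each. EtP embryos had been in medium with 40 uM ethylparaben (EtP), a preservative, from 4 h after fertilization, and control embryos are the untreated group of the series. The series states that most of the exposed embryos stopped at the early 2-cell stage, so EtP embryos are a group defined by exposure in which arrest was common. Not given in the labels are the strain, the medium of the controls, the embryos pooled per library, the hour of collection, and whether each library came from a culture of its own. P-values therefore set the difference between groups against the spread of these libraries, which may be technical only. Exposure, arrest and age at collection cannot be told apart.

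Library totals were 11173295 to 14737152 estimated counts. The 10 genes together took 0.415% to 0.578% of counts in control libraries and 0.504% to 0.538% in EtP libraries. Markers of oocytes and early embryos were present: the 10 genes of that list summed to 4820 to 6060 CPM (counts per 1000000 counts of the library, after TMM scaling, which corrects library sizes for differences in RNA composition) in control and 17300 to 19100 CPM in EtP, with none at 0. Of these, 7 were higher in EtP and 3 (Zp3, Tle6 and Khdc3) did not pass the test described below. Bmp15 made up the largest part of the sum, with means of 3002 CPM in control and 10369 CPM in EtP. The 12 markers of cumulus and granulosa cells summed to 18.3 to 44.6 CPM in control and 17.6 to 19.5 CPM in EtP, with Ptx3 and Amh at 0 counts in every library. Most of that sum was Cyp19a1, which was not called, and of the 5 genes of this list that were tested 3 were lower in EtP (Ptgs2, Tnfaip6 and Fshr). The 7 sperm markers summed to 5.84 to 12.9 CPM in control and 2.90 to 3.43 CPM in EtP, with Tnp1 and Smcp at 0, and the 1 tested gene of that list, Prm2, was lower in EtP. The 8 markers of blastocyst lineages summed to 24.2 to 28.4 CPM in control and 28.8 to 38.3 CPM in EtP, and of 5 tested Nanog was higher and Krt18 lower.

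The promoters of genes that peak in late mitosis often carry a CHR element, read here as TTTGAA, near a CCAAT box. Both motifs were searched, on both strands, in RefSeq promoter windows of GRCm38.p6 from 250 bases before to 50 bases after the transcription start, and all 10 genes had a window. TTTGAA was found for 5 of 10 genes (Bub1b, Bub3, Cdc20, Espl1 and Ttk), against 20.23% of 27025 genes and 17.89% of 32851 windows. CCAAT was found for 7 of 10 (Bub1, Bub1b, Bub3, Cdc20, Espl1, Fzr1 and Ttk), against 41.06% of genes and 37.41% of windows. These motifs were chosen after the expression values were known, and a match describes the letters only. The windows below are read on the strand of the gene and are shown because Cdc20 and Espl1 stand for members with TTTGAA, while Bub1 and Fzr1, which differed between groups, have CCAAT alone. Capitals mark the motif for which a window is shown, written ATTGG where CCAAT lies on the opposite strand. In lower case, the Cdc20 window also holds CCAAT and the Espl1 window ATTGG.
Cdc20, chr4:118437339-118437378, minus strand: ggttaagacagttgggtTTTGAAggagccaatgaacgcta
Espl1, chr15:102296249-102296288, plus strand: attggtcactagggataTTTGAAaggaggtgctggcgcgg
Bub1, chr2:127831880-127831918, minus strand: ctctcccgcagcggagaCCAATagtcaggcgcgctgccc
Fzr1, chr10:81378428-81378466, minus strand: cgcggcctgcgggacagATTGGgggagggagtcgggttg
Pttg1 and Mad1l1, which also differed between groups, had neither motif in this window.

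The cDNA was primed with oligo-dT, which binds the poly(A) tail at the 3′ end of a transcript. In the last 100 bases of protein-coding transcripts of GENCODE M21, the polyadenylation hexamer AATAAA was found for 9 of 10 genes, all but Fzr1, against 68.02% of 21782 genes. The cytoplasmic polyadenylation element TTTTAT, through which stored oocyte RNAs can have their tail lengthened, was found for Bub1b and Cdc20 only among the 10, against 17.36% of genes, and the variant TTTTAAT for Mad2l1, against 6.51%. These 3 motifs, searched on the transcript strand, were also chosen after the expression values were known. Windows of 30 bases are shown for the most abundant member, for the kinase that rose in EtP and for the genes with the cytoplasmic element, with the motif in capitals.
Pttg1-202, AATAAA: gtatgttgtattAATAAAgcatttgtgcat
Bub1-201, AATAAA: atgtttaaaaaaAATAAAgcccatatgata
Bub1b-201, TTTTAT: tttcactgtgtaTTTTATaataaaatagtt
Cdc20-201, TTTTAT: ttcctttcttgtTTTTATtttattttttct
Mad2l1-201, TTTTAAT: tgtaataaagaactcttaTTTTAATgtttt
In Bub1b-201 the element TTTTAT ends directly before AATAAA, whereas in Mad2l1-201 the variant TTTTAAT lies after AATAAA.

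Of the 10 genes, Bub1, Mad1l1 and Pttg1 were higher in EtP, Fzr1 was lower, and the other 6 did not pass the test (edgeR quasi-likelihood test over all genes, Benjamini-Hochberg adjusted p below 0.05). That is 3 of 10 higher, where 12.5% of the 14373 tested genes were higher, and 1 of 10 lower, where 18.1% were lower. The median log2 fold change, EtP over control, was 0.45 over the 10 genes and -0.19 over all tested genes. Scaling mattered for these directions, and the TMM factors of the groups differed (1.198 to 1.385 in control, 0.738 to 0.833 in EtP). Scaled by library size alone, the 10 genes had a median of -0.28 and all tested genes one of -0.92, 0 members were higher by edgeR (0 also at an unadjusted p below 0.05), and Fzr1 and Espl1 were lower. In bulk RNA, fewer cells carrying a transcript and less RNA per cell cannot be told apart.

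**Figure D1:**
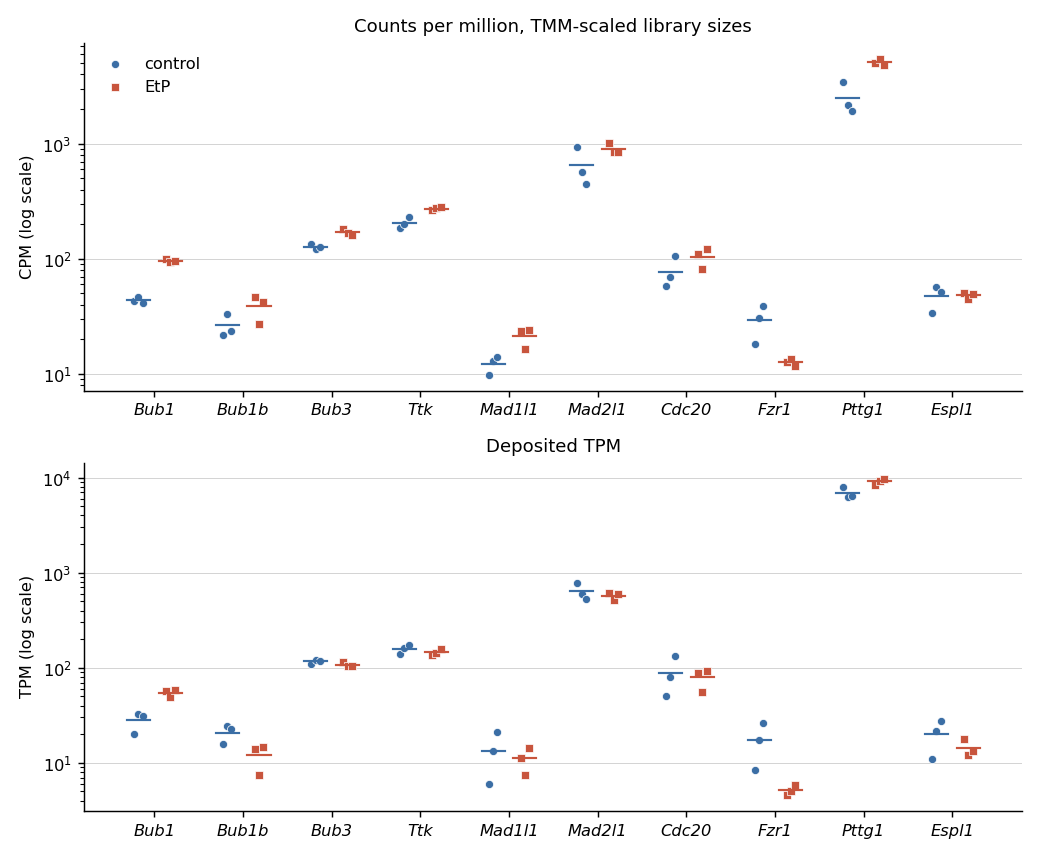
Level of the 10 genes in each of the 6 libraries, as CPM on TMM-scaled library sizes (top) and as deposited TPM (bottom), both on log axes; dots are libraries and bars are group means of 3. Bub1 and Pttg1 lay higher and Fzr1 lower in all 3 EtP libraries on both scales.

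On the TPM scale, in which counts are divided by transcript length before they are scaled to the same total in each library, so that genes can be compared, Pttg1 was first, Mad2l1 second, Ttk at place 3 and Bub1 at place 6 of the 10 in each of the 6 libraries. Mean TPM in control was 6866 ± 918 for Pttg1, 637 ± 130 for Mad2l1, 159 ± 18.2 for Ttk, 117 ± 6.06 for Bub3 and 87.4 ± 41.2 for Cdc20 (SD, n = 3). Below these stood Bub1 with 28.0 ± 6.86, Bub1b with 20.9 ± 4.55, Espl1 with 20.1 ± 8.55, Fzr1 with 17.3 ± 8.95 and Mad1l1 with 13.5 ± 7.5. The control ranges of Pttg1, Mad2l1 and Ttk did not meet, whereas that of Cdc20 overlapped with Bub3, and those of Bub1, Bub1b, Espl1, Fzr1 and Mad1l1 overlapped with each other. Within each control library, however, Bub1 stood above the other 4 of these genes and Mad1l1 below them, while the order of Bub1b, Espl1 and Fzr1 was not the same in all 3. In EtP the order kept Pttg1 (9138 ± 682 TPM), Mad2l1 (570 ± 50.3), Ttk (145 ± 9.69), Bub3 (107 ± 5.56), Cdc20 (79.1 ± 20.6) and Bub1 (54.4 ± 4.86) in the same places. Fzr1 was last in all 3 EtP libraries, at 5.17 ± 0.623 TPM, the place of Mad1l1 in control. By TPM, the groups did not overlap for 4 of 10 genes: Bub1 and Pttg1 were above control (6.74% of tested genes were), and Bub1b and Fzr1 below (50.4% were).

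Bub1, the kinase that marks centromeric chromatin and docks Bub3, rose in EtP. Its level was 43.0, 46.2 and 41.6 CPM in the control libraries and 100.5, 93.3 and 95.5 CPM in the EtP libraries. The groups were far apart and the 3 libraries of each lay close together. The log2 fold change was 1.14 ± 0.20 (SE), or 2.21-fold (edgeR adjusted p = 0.001865), and all 3 EtP libraries were above all 3 control libraries. Bub1 lies on chromosome 2 from 127801122 to 127831865 of mm10 (GENCODE M21), on the minus strand. Only with library size alone was its call lost, at a log2 fold change of 0.41 (adjusted p = 0.1146).

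Bub1b encodes the BUBR1 part of the checkpoint complex and lies on the same chromosome, from 118598211 to 118641591 on the plus strand. Its control libraries had 21.9, 33.4 and 23.8 CPM, and its EtP libraries had 46.4, 27.0 and 42.1 CPM. EtP replicate 2 lay inside the control range, so the groups overlapped, and the difference of 0.55 ± 0.27 (log2, SE) did not pass the test (edgeR adjusted p = 0.1547). In TPM the order was turned round: 15.7, 24.3 and 22.6 in control against 13.9, 7.54 and 14.6 in EtP, with no overlap. The limma fit on log2(TPM + 1) gave a log2 difference of -0.78 (adjusted p = 0.05747). TPM carries no factor for RNA composition, and it divides by a transcript length that was longer for Bub1b in EtP, as described below. With library size alone the log2 fold change was -0.19.

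Bub3, the adaptor that binds both of these proteins, ranged from 122 to 135 CPM in control libraries and from 162 to 182 CPM in EtP libraries, without overlap. Ttk, the kinase at the top of the pathway, ranged from 185 to 229 CPM in control libraries and from 265 to 279.9 CPM in EtP libraries, again without overlap. Their log2 fold changes were alike, 0.42 ± 0.19 for Bub3 and 0.41 ± 0.19 for Ttk, and neither passed the test (edgeR adjusted p = 0.1222 and 0.1306). In TPM the groups of each gene overlapped, and with library size alone the sign turned for both, to -0.32. Ttk lies on chromosome 9 from 83834689 to 83872389 and Bub3 on chromosome 7 from 131560222 to 131571895, both on the plus strand. Bub3 lies inside Fgfr2, which runs on the opposite strand and had 67.0 to 168 counts per library against 1516 to 2301 for Bub3. The library protocol does not mark strand, so reads of the pair where they overlap cannot be told apart.

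Mad1l1, the kinetochore anchor of Mad2l1, lies on chromosome 5 from 140008689 to 140321552 on the minus strand. It was the lowest of the 10 genes in CPM in control, with 9.79, 13.0 and 13.9 CPM, and reached 23.7, 16.4 and 23.85 CPM in EtP. Every EtP library was above every control library. It rose by 0.81 ± 0.26 on the log2 scale in the TMM-scaled fit (edgeR adjusted p = 0.03629), but the sign turned to -0.15 in the fit on log2(TPM + 1), where the groups overlapped. The call was kept in 10 of 18 alternative settings and was lost with library size alone, with a filter at 10 CPM, at a threshold of 0.01, and when control replicate 2, or either of EtP replicates 1 and 3, was left out. The alternatives gave log2 fold changes of -0.15 to 1.00.

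Mad2l1, the protein that locks onto Cdc20, was the second most abundant of the 10 genes. The control libraries held 936, 573 and 451 CPM of it and the EtP libraries 1014, 844 and 847 CPM. Control replicate 1 was as high as the EtP libraries, while the other 2 control libraries were lower, so the groups overlapped. The log2 fold change of 0.47 ± 0.27 did not pass the test (edgeR adjusted p = 0.2198). Without control replicate 1 it was 0.91 and passed (adjusted p = 0.002708), whereas TPM gave 783, 591 and 535 in control and 607, 513 and 590 in EtP. Mad2l1 lies on chromosome 6 from 66535390 to 66547220, on the plus strand. A pseudogene, Gm42430, shares 454 bases with Mad2l1 at 95.374% identity. It had at most 2.07 counts in a library, or 0.0191% of those of Mad2l1.

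Cdc20, the target of the checkpoint, did not differ beyond the spread between libraries. Its values were 57.7, 69.6 and 105.1 CPM for the controls and 109, 81.5 and 122 CPM for EtP, with a log2 fold change of 0.43 ± 0.27 (edgeR adjusted p = 0.2537). Control replicate 3 lay among the EtP libraries, and without it Cdc20 passed the test with a log2 fold change of 0.75 (adjusted p = 0.038). With library size alone the log2 fold change was -0.32. Cdc20 lies on chromosome 4 from 118432901 to 118437352 on the minus strand and shares 53 bases at one end with Elovl1, on the opposite strand.

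Fzr1, the APC/C activator of mitotic exit and G1, fell in EtP. Its estimated counts were 301, 575 and 598 in control and 131, 122 and 141 in EtP, and in CPM it was at 18.1, 30.4 and 38.8 against 12.6, 13.5 and 11.7. The control libraries spread widely, but even the lowest of them was above all 3 EtP libraries. The log2 fold change was -1.21 ± 0.29, or 2.31-fold lower (edgeR adjusted p = 0.01091). Fzr1 was lower in each of the 18 alternative settings, including library size alone (-1.96) and TPM (-1.45 with a pseudocount of 1). It missed a threshold of 0.01, and without EtP replicate 1 or EtP replicate 3 it missed that of 0.05, with an adjusted p of up to 0.05684. It lies on chromosome 10 from 81366222 to 81378516, on the minus strand.

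Pttg1, which encodes securin, the inhibitor and chaperone of separase, rose in EtP and was among the most abundant transcripts of these embryos. By TPM it ranked 10 to 15 among all rows in the control libraries and 7 to 11 in the EtP libraries. Its level was 3406, 2155 and 1927.5 CPM in control and 5039.7, 5504.5 and 4832 CPM in EtP. Control replicate 1 was the highest control and still lay below every EtP library. The log2 fold change was 1.04 ± 0.25, or 2.05-fold (edgeR adjusted p = 0.01008), and the call was lost with library size alone (0.32, adjusted p = 0.1963), at a threshold of 0.01 and without control replicate 2. In TPM it was at 7917, 6219.6 and 6461 in control and 8401, 9266 and 9747 in EtP. Pttg1 lies on chromosome 11 from 43420250 to 43426251, on the minus strand.

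Espl1, which encodes separase, ranged from 33.6 to 56.6 CPM over the control libraries and from 44.4 to 50.9 CPM over the EtP libraries. The EtP libraries all lay inside the control range. It lies on chromosome 15 from 102296266 to 102324357, on the plus strand. The log2 fold change was 0.03 ± 0.24 (edgeR adjusted p = 0.9433). With library size alone it was -0.71 and passed the test (adjusted p = 0.04236).

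**Figure D2:**
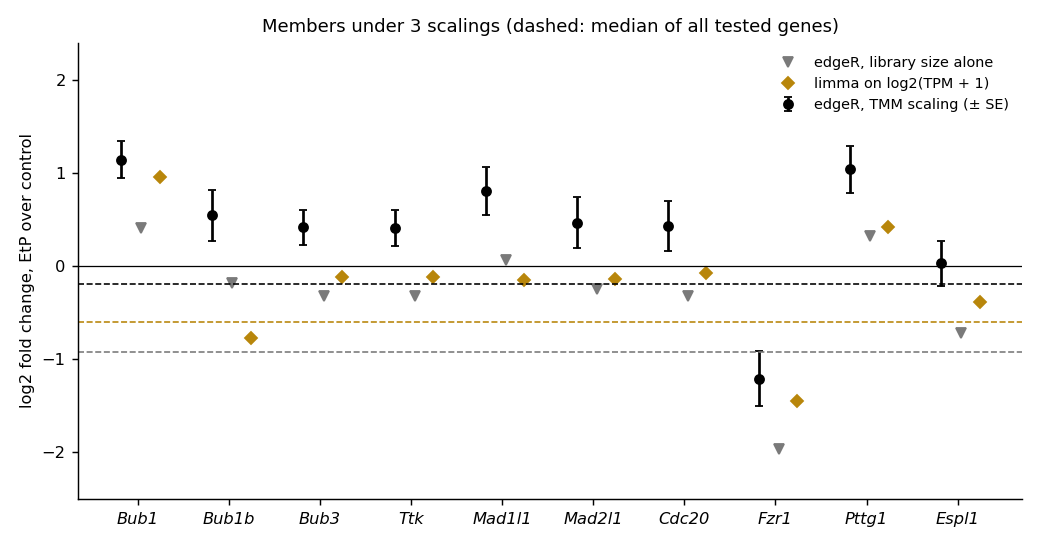
Log2 fold change, EtP over control, of the 10 genes in the edgeR fit with TMM scaling (black, bars are SE), with library size alone (grey) and in limma on log2(TPM + 1) (gold); dashed lines are the median of all tested genes in each fit. Bub1 and Pttg1 stayed above 0 and Fzr1 below 0 in the 3 fits, whereas Bub1b, Bub3, Ttk, Mad2l1, Cdc20 and Espl1 were above 0 only with TMM scaling and Mad1l1 was below 0 only in TPM.

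The 5 genes whose profile over the 6 libraries lay closest to that of Pttg1, the most abundant member, were Slbp, Mrpl1, Dkc1, Ddx25 and Pole4. The measure was the Euclidean distance of log2 CPM centred on each gene's mean, among 5967 other genes with a name and at least 10 CPM on average. Slbp, the stem-loop binding protein of histone mRNA, was nearest at a distance of 0.124 and had a mean of 4762 CPM. The others lay at 0.152 to 0.188.

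The deposited tables also hold, for each gene and library, a transcript length weighted by the estimated abundance of the gene's isoforms. It equalled the annotated length for all 34006 genes with 1 transcript and stayed inside the annotated range for all 20609 genes with several, so it moves only when the estimated mix of isoforms moves. For 3 of the 10 genes the groups did not overlap: Bub1b was longer in EtP, where 11.5% of 10998 tested genes with a varying length were, and Bub1 and Fzr1 were shorter, where 10.7% were. Each had an exact two-sided permutation p of 0.1, the smallest that 3 against 3 allows, and an adjusted p of 0.333 over the 10 genes. The other 7 genes overlapped between groups.

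**Figure D3:**
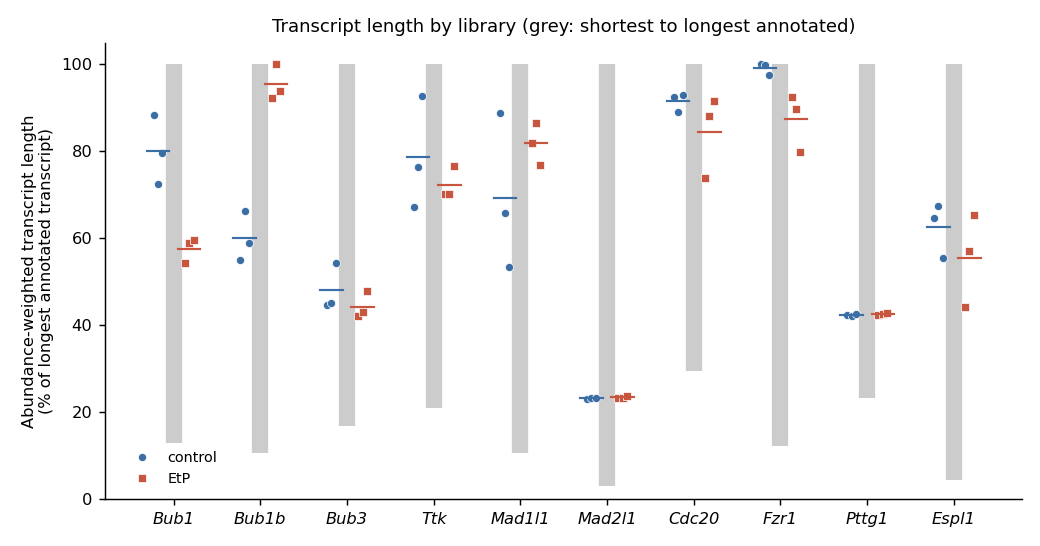
Abundance-weighted transcript length of the 10 genes in each library, as a percentage of the longest annotated transcript; grey bars span the shortest to the longest annotated transcript and coloured bars are group means of 3. Bub1 was shorter and Bub1b longer in all 3 EtP libraries, and Mad2l1 and Pttg1 hardly varied.

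For Bub1 the weighted length was 3020, 2483 and 2722 bases in control and 1857, 2017 and 2040 bases in EtP. For Bub1b it was 2016, 2430 and 2159 bases in control and 3382, 3668 and 3447 bases in EtP. The 2 related genes thus differed in opposite directions, at 0.719 of the control mean for Bub1 and 1.59 of it for Bub1b. Among the 10998 genes the median ratio was 1.00, 343 genes (3.12%) had a smaller ratio than Bub1, and 230 (2.09%) a larger one than Bub1b. Fzr1 differed less, with 3057, 3056 and 2980 bases in control and 2824, 2741 and 2444 bases in EtP. Pttg1 stayed between 705 and 715 bases in all 6 libraries.

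Bub1 and Bub1b each have 1 long protein-coding transcript and otherwise only short transcripts annotated as retained introns or processed transcripts. The coding transcript Bub1-201 has 3421 bases and the other 4 have 438 to 1137 bases, and Bub1b-201 has 3668 bases and the other 3 have 385 to 661 bases. The weighted length then bounds the share of the full-length transcript in each library, a calculation added after the lengths were seen. For Bub1 the bounds spanned 58.9% to 86.6% over the control libraries and 31.5% to 53.7% over the EtP libraries. For Bub1b they spanned 45.1% to 62.3% in control and 90.5% to 100% in EtP. The intervals of the groups did not meet for either gene. Cdc20, the other gene to which the bounds were applied, has 1 transcript of 1793 bases and otherwise transcripts of 526 and 771 bases, and its bounds overlapped, at 81.0% to 90.0% in control and 54.1% to 88.1% in EtP.

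**Figure D4:**
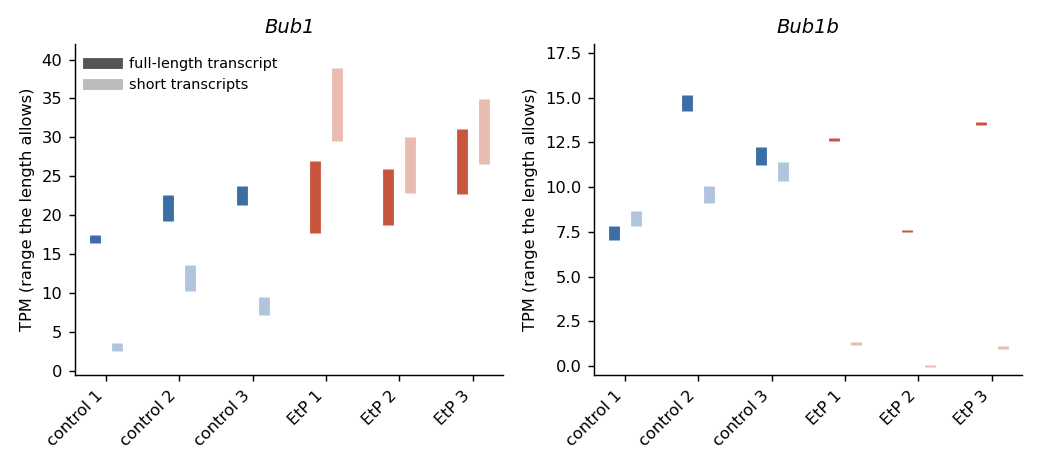
Range of TPM that the weighted length allows for the full-length transcript (dark) and for the short transcripts together (light) of Bub1 and Bub1b in each library. For Bub1 the short transcripts reached 23.0 to 38.8 TPM in EtP against 2.70 to 13.5 in control. For Bub1b they were at 0 to 1.32 in EtP against 7.89 to 11.3 in control. The full-length ranges overlapped between groups in TPM, which carries no factor for RNA composition.

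Split this way, full-length Bub1 had 16.6 to 23.7 TPM in control and 17.8 to 31.0 TPM in EtP, and full-length Bub1b had 7.07 to 15.1 TPM in control and 7.54 to 13.6 TPM in EtP. In TPM the full-length ranges of the groups overlapped for both genes, and the ranges of the short transcripts did not. TPM carries no factor for RNA composition, and the split was not made in CPM, the scale of the 2.21-fold rise of Bub1. Because TPM divides by transcript length, a long transcript holds a larger share of counts than of TPM. The TPM ranges therefore do not carry over to CPM, and whether full-length Bub1 differed on that scale was not tested. The short Bub1 transcripts lie in several places of the gene: Bub1-202 covers its first 27.4%, Bub1-204 and Bub1-205 lie between 55.1% and 74.7% and Bub1-203 between 86.5% and 89.0% of the way along it. Those of Bub1b lie between 4.4% and 26.7% and between 74.6% and 88.8% of the way along the gene. The weighted length is the authors' estimate from short reads, and it does not give the share of each short transcript. Read coverage along the genes was not analysed here, and the part of intronic or truncated cDNA in these values was not tested.

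A ratio of 2 members within a library does not depend on how libraries are scaled. Of 7 pairs of binding partners, targets or related genes, 4 did not overlap between groups in TPM. Each of these 4 had an exact two-sided permutation p of 0.1, the smallest possible, with an adjusted p of 0.175 over the 7 pairs. All of these but Cdc20 to Fzr1 include Bub1b, so they are not independent. The share among gene pairs at large was not computed. Among single tested genes, TPM did not overlap for 6.74% (higher in EtP) and 50.4% (lower). The ratio of the 2 APC/C activators, Cdc20 to Fzr1, was 6.11, 4.55 and 5.04 in control and 19.4, 10.9 and 16.0 in EtP. All 3 EtP libraries were above the controls, by 2.89-fold in the geometric mean, and this held for ratios of estimated counts too, at 2.29 to 3.20 in control and 6.05 to 10.4 in EtP. Bub1 to Bub1b was 1.28, 1.35 and 1.37 in control and 4.06, 6.47 and 3.96 in EtP, a 3.53-fold difference. In counts, which carry no length, the groups of this pair stayed apart but closer, at 1.38 to 1.96 and 2.16 to 3.46.

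Bub1b to Cdc20 was 0.307, 0.307 and 0.171 in control and 0.157, 0.136 and 0.157 in EtP, and Bub3 to Bub1b was 6.99, 4.98 and 5.28 in control and 8.17, 13.8 and 7.17 in EtP. These 2 pairs overlapped in counts, so their separation in TPM comes with the transcript lengths, which counts do not use. The inhibitor to target ratio Mad2l1 to Cdc20 overlapped, at 4.05 to 15.3 in control and 6.34 to 9.24 in EtP (exact permutation p = 0.9). Mad2l1 to Mad1l1 overlapped as well, at 25.5 to 131 and 40.8 to 68.5 (exact permutation p = 1.0). Securin to separase, Pttg1 to Espl1, was 726, 286 and 233 in control and 476, 773 and 727 in EtP. Control replicate 1 was as high as the EtP libraries, and the 1.77-fold difference did not pass (exact permutation p = 0.2, adjusted p = 0.28).

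**Figure D5:**
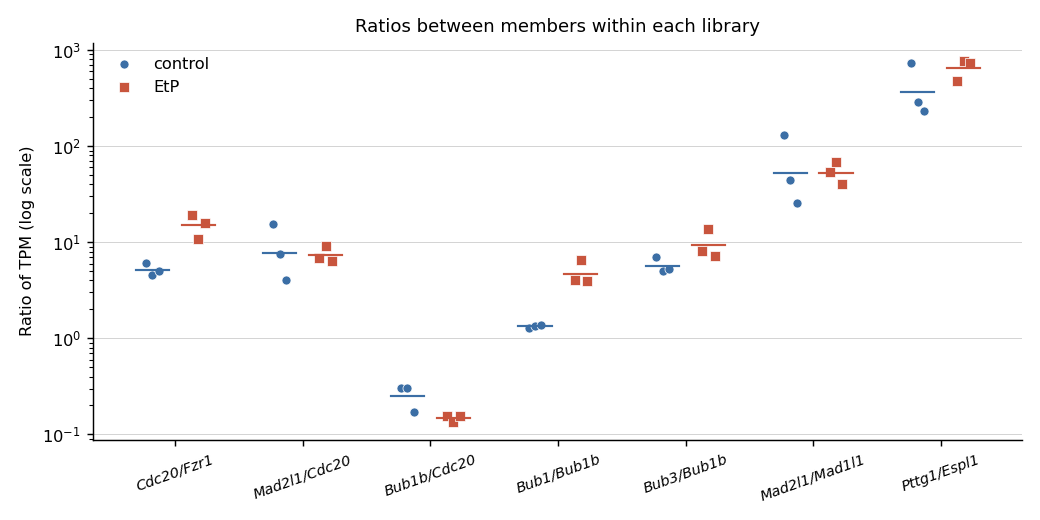
Ratio of TPM of 2 members within each library for the 7 pairs, on a log axis; dots are libraries and bars are geometric means of 3. Cdc20/Fzr1, Bub1/Bub1b and Bub3/Bub1b were higher and Bub1b/Cdc20 lower in all 3 EtP libraries, and the other 3 pairs overlapped.

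Around the checkpoint proteins, 4 further lists of the pathway were read from the same fit. Their counts stand against 12.5% higher and 18.1% lower among all tested genes. Of 17 genes of the kinetochore platform and of checkpoint helpers, 4 were higher, 3 lower and 10 did not pass, with a median log2 fold change of -0.02. Spdl1, which recruits dynein to kinetochores and helps to strip checkpoint proteins from them, rose from 55.4 ± 2.07 to 336 ± 25.1 CPM, by 2.60 ± 0.20 on the log2 scale (edgeR adjusted p = 1.239e-05). Ndc80, the microtubule-binding subunit, rose from 32.4 ± 11.2 to 79.8 ± 8.13 CPM, and Dsn1, of the Mis12 complex, from 226 ± 27.9 to 432 ± 60.7 CPM. Mad2l1bp (p31comet), which helps to extract Mad2l1 from the checkpoint complex, fell from 69.8 ± 12.9 to 29.7 ± 4.67 CPM (log2 fold change -1.23 ± 0.23). The lower genes also included Pmf1 and Spc24, and the higher ones Zw10. In the fit with library size alone, 1 gene of this list was higher and 6 were lower.

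Of the 14 subunits of the APC/C, which Cdc20 and Fzr1 activate, 2 were higher, 2 lower and 10 did not pass, with a median of 0.06; counts this size are near the shares of all tested genes (12.5% higher, 18.1% lower). Anapc7 rose from 47.5 ± 5.95 to 111 ± 6.59 CPM and Anapc4 from 32.2 ± 3.84 to 64.6 ± 4.38 CPM. Anapc11, the catalytic RING subunit, fell from 18.5 ± 5.82 to 7.41 ± 1.11 CPM. Anapc15, which promotes turnover of the checkpoint complex, had means of 137 ± 39.4 CPM (control) and 88.4 ± 5.76 CPM (EtP) and did not pass (edgeR adjusted p = 0.0688). With library size alone both higher calls were lost and 7 subunits were lower.

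Of 12 enzymes, inhibitors and substrates of the APC/C, 4 were higher, 3 lower and 5 did not pass, with a median of 0.52. Fbxo5 (EMI1), an inhibitor of the APC/C, rose from 75.5 ± 5.73 to 359.7 ± 59.3 CPM, by 2.25 ± 0.22 on the log2 scale (edgeR adjusted p = 5.037e-05). Ube2c, the ubiquitin-conjugating enzyme that starts chains for the APC/C, fell from 110.8 ± 43.6 to 40.0 ± 8.14 CPM, and Ube2d1, which can take its place, from 8.96 ± 0.346 to 4.03 ± 0.916 CPM. The substrate Tpx2, a spindle assembly factor, rose from 183 ± 47.1 to 338 ± 5.40 CPM. Ccnb1 and Nek2 were also higher, and Ccnb2 was lower. The all-gene shares were again 12.5% higher and 18.1% lower. Both with library size alone and in the TPM fits, 1 gene of this list was higher.

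Of 20 genes of cohesin and its protectors, on which separase acts, 19 were tested, 2 were higher, 0 lower and 17 did not pass, with a median of 0.24. The 2 higher genes are near the 12.5% of all tested genes that were higher, and 18.1% were lower. At an unadjusted p below 0.05 edgeR gave 1 lower gene, and DESeq2 gave 0 after adjustment. Esco2, which acetylates cohesin to hold sister chromatids together, rose from 390.2 ± 96.4 to 1319 ± 182 CPM, and Wapl, which releases cohesin from chromatin, from 159 ± 13.5 to 263 ± 39.6 CPM. In TPM Esco2 was higher in EtP without overlap. The groups of Wapl overlapped in TPM, at 55.6 ± 14.3 in control and 46.7 ± 9.10 in EtP. Esco1 and Cdca5 (sororin) had log2 fold changes of 0.52 ± 0.20 and 0.48 ± 0.20 and did not pass (edgeR adjusted p = 0.07216 and 0.08951). With library size alone 1 gene of this list was higher and 8 were lower.

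Of the oocyte and early embryo list, Bmp15 had 3002 ± 254 CPM (control) and 10369 ± 467 CPM (EtP), and Ooep 1148 ± 499.5 and 2617 ± 489 CPM. The 7 called genes of that list were higher in EtP, as Bub1 and Pttg1 were, whereas Khdc3 had a log2 fold change of -0.58 ± 0.29 and was not called (edgeR adjusted p = 0.1602), and Zp3 and Tle6 were not called either and had lower mean TPM in EtP than in control. Cyp19a1 and Fshr had the highest means over all 6 libraries in the cumulus and granulosa list, at 22.2 ± 11.7 and 1.64 ± 0.471 CPM in control and 17.1 ± 1.42 and 0.524 ± 0.280 CPM in EtP, and Fshr fell (log2 fold change -1.60 ± 0.51, edgeR adjusted p = 0.03452). Ptgs2 fell from 1.86 ± 1.75 to 0.0643 ± 0.111 CPM (edgeR adjusted p = 0.009272), and Tnfaip6 from 1.03 ± 0.493 CPM to 0 counts in all 3 EtP libraries (edgeR adjusted p = 0.002851). Prm2 and Odf1 led the sperm list, at 7.44 ± 3.16 and 0.706 ± 0.434 CPM in control and 2.71 ± 0.243 and 0.198 ± 0.263 CPM in EtP, and Prm2 fell (edgeR adjusted p = 0.0111). Nanog and Gata4 led that of blastocyst lineages, at 10.3 ± 3.07 and 10.1 ± 3.42 CPM in control and 22.5 ± 6.86 and 7.17 ± 2.20 CPM in EtP, and Nanog rose (edgeR adjusted p = 0.02046). The part of stored oocyte RNA, or of RNA from cumulus cells or sperm, in the differences of the 10 genes was not tested.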

How the data were processed

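Per the labels' protocols, polyadenylated RNA went through Smart-seq2 primed with oligo-dT, a method that does not mark strand, and paired-end sequencing. The submitters' processing notes name cutadapt 1.16, STAR and the mm10 build; of the program that counted reads, the name is not given in the sources used here. Expected counts, estimates of fragments per gene that need not be whole, were deposited by the authors (10.6% to 16.0% of rows were not, within 0.005), and these were rounded for the count tests. The authors also deposited TPM, which corrects for transcript length and depth. Rows without an Ensembl ID held 0.648% to 1.373% of counts and were kept. The labels name no molecular identifiers, so PCR copies count as fragments.

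The members and lists were chosen with earlier results of these data known. All genes were fitted together with edgeR 4.0.16 in R 4.3.3 (filterByExpr, TMM, robust quasi-likelihood fit, group as the only term, Benjamini-Hochberg at 0.05), and members were read from that fit. The control libraries had TMM factors from 1.198 to 1.385, the EtP libraries from 0.738 to 0.833. CPM uses the TMM-scaled library sizes. SE is the log2 fold change over the square root of F. For ratios and lengths the test was an exact two-sided permutation test (scipy 1.17.1). Besides the 10 members, the genes named are up to 4 per pathway list with the smallest p and at least 5 CPM, the 2 most abundant of each marker list, and the 5 nearest to Pttg1. Of the lists, Pmf1, Spc24, Zw10, Ccnb1, Nek2, Ccnb2, Zp3, Tle6, Khdc3, Ptgs2, Tnfaip6 and Krt18 were named after their values were seen. Annotation was GENCODE M21. Near-identical copies were sought with BLAST 2.17.0 at 95% identity over 300 bases, a length set after shorter hits were seen. Alternatives used limma 3.58.1 and DESeq2 1.42.0. The edgeR step was tested on simulated data, in which 88 genes were changed 2-fold and 112 were changed 4-fold, with 13618 tested. It called, in the right direction, 25.3% of genes changed 2-fold and 78.2% of those changed 4-fold. Of its calls, 6.54% were false. In the real data 4399 of 14373 tested genes were called. An adjusted p depends on how many genes differ, so the simulated shares need not hold for the real data. A gene that did not pass may still differ. Figures were drawn with matplotlib 3.10.9.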

Additional observations from a re-analysis of the deposited data

How the results depend on the processing

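Over all genes, 1798 were higher and 2601 lower in EtP, and these numbers were 545 and 7617 with library size alone, 978 and 1454 with at least 10 CPM in 3 libraries, 918 and 1403 at an adjusted p below 0.01, 698 and 6195 with limma on log2(TPM + 1) and 697 and 6190 with a pseudocount of 0.1. Leaving out 1 library gave 1096 to 2637 higher and 1659 to 2887 lower, with the lowest of both without EtP replicate 1. Decreases were 59.1% of calls, against 52.5% with RLE factors, 64.8% with upper-quartile scaling, 93.3% with library size alone, 50.7% with DESeq2 and 89.9% in TPM. Of the members, 3 were higher and 1 lower, against 0 and 2 with library size alone and 1 and 0 at 0.01, and 1 to 5 higher and 0 to 1 lower on leaving out 1 library. The higher count was 1 without control replicate 2 and 5 without control replicate 1, and the lower count was 0 without EtP replicate 1 or 3. Bub1 kept its call in 17 of 18 alternatives, Fzr1 and Pttg1 in 15 each and Mad1l1 in 10. Ttk passed with DESeq2 (adjusted p = 0.04525) and Bub3 without control replicate 1 (adjusted p = 0.01927).

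Signs turned with library size alone for Bub1b (-0.19), Bub3 (-0.32), Cdc20 (-0.32), Mad2l1 (-0.24), Ttk (-0.32) and Espl1 (-0.71). They turned with limma on log2(TPM + 1) for Bub1b (-0.78), Bub3 (-0.12), Cdc20 (-0.072), Mad1l1 (-0.15), Mad2l1 (-0.14), Ttk (-0.12) and Espl1 (-0.39). With a pseudocount of 0.1 these were -0.82, -0.12, -0.072, -0.15, -0.14, -0.12 and -0.40. Espl1 also turned with upper-quartile scaling (-0.039) and at 10 CPM in 3 libraries (-0.22), and was at -0.071 to 0.26 on leaving out 1 library. The cause was not tested beyond the scaling itself.

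Kinetochore genes were 4 higher and 3 lower, against 1 and 6 with library size alone and 2 and 6 in both TPM fits, and 3 to 7 and 1 to 3 without 1 library. APC/C subunits were 2 and 2, against 0 and 7 with library size alone, 0 and 6 in both TPM fits, 1 lower at 0.01, and 2 to 4 and 1 to 3 without 1 library. APC/C enzymes, inhibitors and substrates were 4 and 3, against 1 higher with library size alone, at 10 CPM and in both TPM fits, 1 and 1 at 0.01, and 1 to 6 and 1 to 3 without 1 library. Cohesin genes were 2 and 0, against 1 and 8 with library size alone, 1 and 4 in both TPM fits, 1 higher at 10 CPM and at 0.01, 4 higher with DESeq2, 1 lower with upper-quartile scaling or without a filter, and 1 to 6 and 0 to 1 without 1 library. Of the 7 ratios 4 did not overlap, against 2 in expected counts. Of the lengths 3 did not overlap, and 3 to 5 without 1 library. The libraries of the groups share replicate numbers, and deviations of same-numbered libraries from their group means had correlations of 0.127, 0.003 and 0.273. Control replicate 3 was most like EtP replicate 3. Control replicate 1 was about as like EtP replicate 2 (0.111) as EtP replicate 1 (0.127). Control replicate 2 was like none of the EtP libraries, at -0.019 to 0.017. Whether the numbers are pairs cannot be told from these values, and the main fit did not take them as pairs. A replicate block gave 2295 higher and 3022 lower genes, with 3 and 1 members as before, and 1 cohesin gene lower.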
